A study of Mus musculus and Rattus norvegicus with 26 samples.

Results

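Intronic sequence of 8 cytoskeleton and ankyrin genes, Map2, Map1b, Mapt, Dclk1, Dst, Macf1, Ank2 and Ank3, was followed through 6 lists of intronic contigs from rodent cells. A contig is a stretch of an intron that the authors built by joining neighbouring reads, in a survey of cytoplasmic intron-sequence retaining transcripts (CIRTs), RNAs that keep a piece of an intron outside the nucleus. Reads were joined across gaps, so a contig can span bases that no read covers. Members were taken as every contig whose gene symbol was one of 10 names, because Map2 and Map1b are also listed as Mtap2 and Mtap1b. They came to 175 of 112345 contigs, 126 of 85860 introns counted in each list, and 8 of 13695 gene symbols. The reads of an intron were counted 1 time for each transcript and intron.

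The lists covered dendrites and somas of hippocampal neurons from C57BL/6 mice (3 libraries each) and from Sprague-Dawley rats (2 dendrite and 3 soma libraries), taken at embryonic day 18 and then grown in culture before dissection. The other lists covered single cells of interscapular brown adipose tissue (BAT) from CD-1 mice at embryonic day 17.5 (6 libraries) and cardiomyocytes from transgenic C57BL/6 mice at embryonic day 14.5 (9 libraries). Each dendrite library held a batch of hand-cut dendrites, from which axons were not separated, and each soma library held 1 cell with its nucleus. The cardiomyocytes were hemizygous for the Fucci reporter mAG-hGem under the CMV promoter, were taken from heart ventricles and were sorted by flow cytometry. All RNA had gone through 3 rounds of aRNA amplification. The libraries of a condition were pooled in its list, so no value per library, no spread between libraries and no test between conditions could be given, and every interval below covers counting error only.

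The reads of a list summed to between 1007530 in rat dendrites and 17858440 in BAT cells. The 8 neuron markers were listed in mouse dendrites, mouse somas and BAT cells, with 2535, 14736 and 1831 RPM (reads in 1000000 reads of the list). In cardiomyocytes 2 of 8 neuron markers and all 8 cardiomyocyte markers were listed, the latter with 28430 RPM, and 6 of 7 brown adipocyte markers were listed in BAT cells with 3592. In mouse dendrites 4 of 5 astrocyte markers (966 RPM), 4 of 7 brown adipocyte markers (322) and 7 of 8 cardiomyocyte markers (571) were also listed. For the same 3 types mouse somas listed 3 of 5 (142 RPM), 3 of 7 (169) and 3 of 8 (24.8). Rat dendrites listed 1 of 5 (68.5), 2 of 7 (96.3) and 2 of 8 (79.4), and rat somas 2 of 5 (120), 2 of 7 (15.8) and 1 of 8 (59.7). BAT cells also listed 5 of 8 cardiomyocyte markers (1362 RPM) and 4 of 5 astrocyte markers (45.4), and cardiomyocytes listed 3 of 7 brown adipocyte markers (287). Of the neuron markers, rat dendrites listed 5 of 8 (2782 RPM) and rat somas 6 of 8 (8815). Marker counts are to be read against list size, since the lists held from 24.8% (rat somas) to 74.6% (BAT cells) of all gene symbols, with 62.8% in mouse dendrites. The part of other cells in the results was not tested, and fewer cells of a type and less RNA per cell cannot be told apart in pooled lists.

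Microtubules are the tracks and struts of neuronal processes, and the members act on them or tie membranes to the cytoskeleton. MAP2, MAP1B and tau (the product of Mapt) bind along microtubules, MAP2 mainly in dendrites and tau mainly in axons, while the kinase DCLK1 binds them through doublecortin domains. Dystonin (Dst) and MACF1 are very large spectraplakins that link actin to microtubules, and the ankyrins B (Ank2) and G (Ank3) hold membrane proteins on the spectrin lattice, ankyrin G above all at the axon initial segment. An intron begins with GT and ends with AG in nearly all genes, and amplification here began from a poly(T) primer, which pairs with runs of adenines.

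The sequences that the later results turn on were read from the mouse genome build NCBIM37 (mm9), 5′ to 3′ on the gene's strand, and were chosen after the values were seen. The first set shows contig 3′ ends, with the last 50 bases of a contig followed by the next 40 bases of the genome, and with runs of at least 8 adenines in capitals. They are given as name, position and strand, followed by the sequence.
Dst intron 5, mouse somas, chr1:34179592-34179681, plus strand: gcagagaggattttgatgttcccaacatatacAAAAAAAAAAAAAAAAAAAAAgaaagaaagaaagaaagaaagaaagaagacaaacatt
Dst intron 1, mouse somas, chr1:34089419-34089508, plus strand: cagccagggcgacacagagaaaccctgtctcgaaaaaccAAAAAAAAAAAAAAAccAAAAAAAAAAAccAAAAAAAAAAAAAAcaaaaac
Dst intron 1, cardiomyocytes, chr1:34123574-34123663, plus strand: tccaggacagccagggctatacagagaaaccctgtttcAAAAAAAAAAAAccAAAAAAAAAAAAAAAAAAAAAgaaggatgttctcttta
Dst intron 2, mouse somas, chr1:34169536-34169625, plus strand: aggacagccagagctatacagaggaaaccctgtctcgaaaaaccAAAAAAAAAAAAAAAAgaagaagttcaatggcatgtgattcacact
Macf1 intron 50, mouse somas, chr4:123112690-123112779, minus strand: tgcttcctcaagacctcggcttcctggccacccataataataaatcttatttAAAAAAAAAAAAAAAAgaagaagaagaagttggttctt
Mapt intron 9, mouse dendrites, chr11:104184731-104184820, plus strand: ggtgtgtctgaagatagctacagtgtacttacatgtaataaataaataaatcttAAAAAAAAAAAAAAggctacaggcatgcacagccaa
Mapt intron 6, mouse somas, chr11:104178911-104179000, plus strand: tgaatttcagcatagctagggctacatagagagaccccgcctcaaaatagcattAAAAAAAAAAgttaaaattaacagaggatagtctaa
Ank2 intron 4, mouse dendrites, chr3:126684038-126684127, minus strand: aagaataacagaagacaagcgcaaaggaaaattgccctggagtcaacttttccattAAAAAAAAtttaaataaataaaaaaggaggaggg
Macf1 intron 45, mouse somas, chr4:123123590-123123679, minus strand: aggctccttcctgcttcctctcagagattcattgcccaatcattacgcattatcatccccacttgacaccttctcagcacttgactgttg
Dclk1 intron 1, mouse somas, chr3:55266605-55266694, plus strand: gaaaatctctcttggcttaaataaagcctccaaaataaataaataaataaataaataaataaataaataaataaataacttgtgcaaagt
Macf1 intron 27, mouse dendrites, chr4:123168447-123168536, minus strand: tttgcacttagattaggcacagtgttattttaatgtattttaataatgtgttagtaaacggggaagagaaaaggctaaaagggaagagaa

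In the first 8 of these a run of 8 to 21 adenines lay across or just past the contig end. In Macf1 introns 45 and 27 and in Dclk1 intron 1 the longest run of adenines in the 90 bases shown was 2, 4 and 4 bases, and the Dclk1 end was a repeat of aaat. The soma ends of Dst introns 1 and 2 held the letters ccctgtctc, which are known from the 3′ part of the mouse B1 repeat, ahead of the adenines.

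Whole dendrite contigs that recurred in other lists without a run of at least 8 adenines are shown for Macf1 intron 21 and Ank3 intron 37.
Macf1 intron 21, mouse dendrites, chr4:123176861-123177100, minus strand: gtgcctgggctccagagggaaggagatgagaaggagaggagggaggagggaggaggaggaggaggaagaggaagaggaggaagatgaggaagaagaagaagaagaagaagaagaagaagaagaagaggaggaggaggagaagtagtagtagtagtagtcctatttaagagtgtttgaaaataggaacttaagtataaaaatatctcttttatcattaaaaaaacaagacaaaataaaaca
Ank3 intron 37, mouse dendrites, chr10:69463205-69463492, plus strand: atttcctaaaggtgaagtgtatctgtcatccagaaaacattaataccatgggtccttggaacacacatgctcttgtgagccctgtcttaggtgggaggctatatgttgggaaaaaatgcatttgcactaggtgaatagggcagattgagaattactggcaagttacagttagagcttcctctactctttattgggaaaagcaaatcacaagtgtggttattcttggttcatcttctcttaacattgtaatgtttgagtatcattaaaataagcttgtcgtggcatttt

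The last set shows contigs that ran up to an exon, as the 60 bases at the intron's end, with the GT or AG of the intron in capitals.
Map2 intron 12 end, chr1:66480028-66480087, plus strand: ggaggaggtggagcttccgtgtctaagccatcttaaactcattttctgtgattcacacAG
Map2 intron 13 start, chr1:66480170-66480229, plus strand: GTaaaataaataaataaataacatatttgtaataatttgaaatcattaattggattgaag
Ank2 intron 12 start, chr3:126658728-126658787, minus strand: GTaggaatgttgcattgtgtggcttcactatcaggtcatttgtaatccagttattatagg
Ank2 intron 12 end, chr3:126658028-126658087, minus strand: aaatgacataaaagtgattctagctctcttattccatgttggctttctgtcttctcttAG

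Mouse dendrites, mouse somas and BAT cells each listed 7 of 8 genes, cardiomyocytes listed 4, and rat dendrites and rat somas listed 3 each. As named here, these lists held 62.8, 43, 74.6, 45.3, 32.7 and 24.8% of all 13695 gene symbols. The introns listed were 32 in mouse dendrites, 16 in mouse somas, 14 in rat dendrites, 5 in rat somas, 41 in BAT cells and 18 in cardiomyocytes. These counts largely followed the size of the lists, since they were 0.164, 0.151, 0.189, 0.0941, 0.137 and 0.138% of all introns in the same order. Dst and Macf1 accounted for most of them in every mouse list except that of the somas, where they gave 8 of 16. A gene missing from a list may have had reads that the authors' filters removed, so absence is given as not listed and not as 0.

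**Figure D1:**
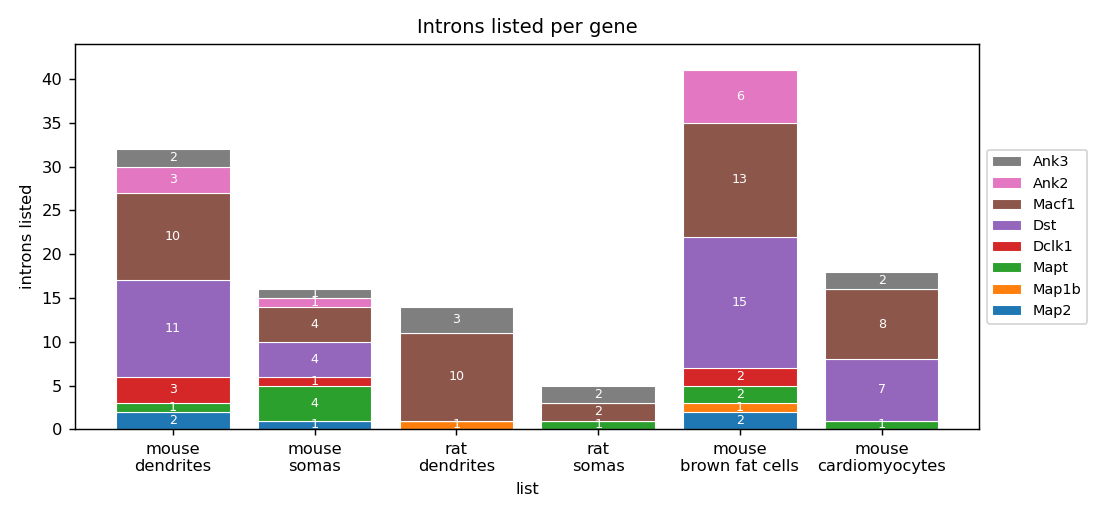
Number of introns listed for each gene (stacked colours, counts printed in the bars) in each of the 6 lists (horizontal axis). Dst and Macf1 make up 21 of 32 introns in mouse dendrites and 28 of 41 in BAT cells, and Macf1 makes up 10 of 14 in rat dendrites.

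The members took 0.0698% of the reads in mouse dendrites (95% interval 0.0669 to 0.0728) and 0.263% in mouse somas (0.256 to 0.271). In rat the shares were 0.0744% in dendrites (0.0692 to 0.0800) and 0.0664% in somas (0.0630 to 0.0700). BAT cells had 0.319% (0.317 to 0.322) and cardiomyocytes 0.181% (0.179 to 0.183). Reads are given per intron. A limit of 400 nt on contigs therefore kept all reads of an intron with any contig within the limit, those of its longer contigs included. The order of the lists depended on the contigs kept: with contigs of at most 400 nt the share was 0.00838% in rat somas and 0.119% in BAT cells, below the 0.386% of mouse somas and 0.311% of cardiomyocytes. Without the most read member intron of each list it was 0.0227% in rat somas, 0.144% in mouse somas and 0.0856% in cardiomyocytes. Without Dst it was 0.101% in mouse somas and 0.0502% in cardiomyocytes. A gene was counted as high in a list when 1 of its introns had at least 256 reads. In mouse dendrites Macf1 and Map2 did so, 2 of 7 members beside 23.5% of all genes of the list. In mouse somas these were Dclk1, Dst and Mapt, 3 of 7 beside 18.7%. In BAT cells 6 of 7 did so beside 40.2%, in cardiomyocytes 3 of 4 beside 42.9%, in rat somas 1 of 3 beside 30.4%, and in rat dendrites 0 of 3 beside 15.8%.

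**Figure D2:**
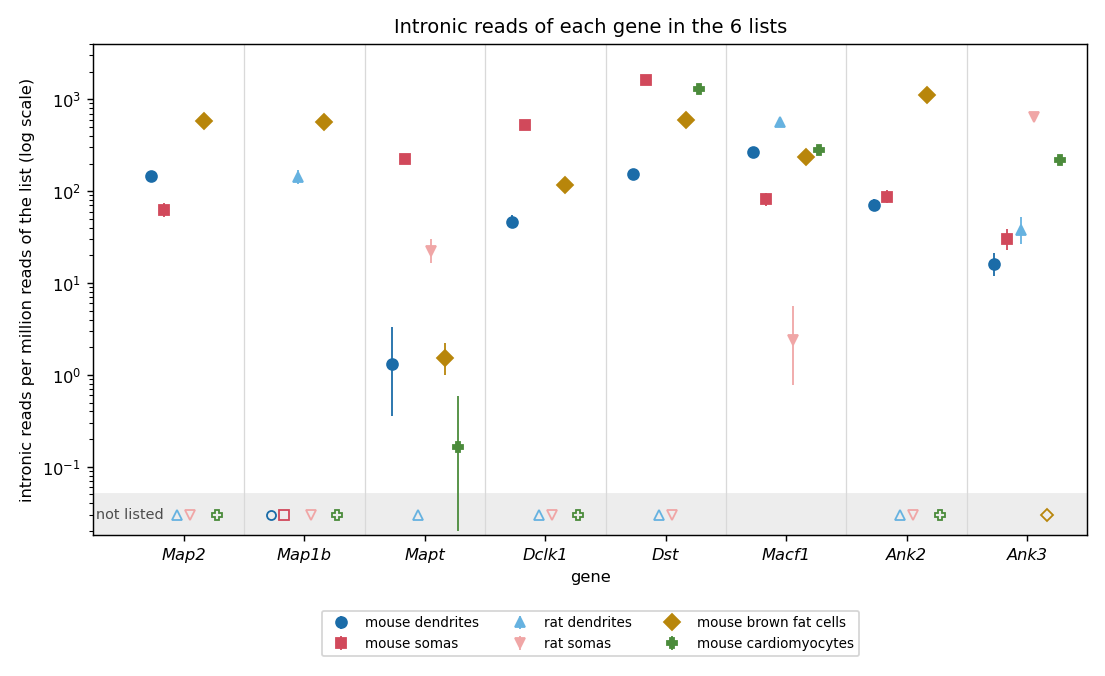
Intronic RPM (vertical axis, log scale) for each gene (horizontal axis) and list (marker), with 95% exact intervals for counting error; open markers in the grey band are genes not listed. Dst ranges from 152 to 1623 over the 4 mouse lists and Mapt from 0.164 to 225.

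Among the microtubule-binding proteins, Map2 had its introns in mouse neurons and BAT cells. Its reads were 453 in mouse dendrites, 116 in mouse somas and 10406 in BAT cells, or 147, 62.5 and 583 RPM, and it was not listed in the other lists. BAT cells were highest and mouse somas lowest, with intervals that did not overlap (572 to 594, 134 to 161 and 51.7 to 75.0). When contigs over 400 nt were left out, as the authors did for whole cells, Map2 was no longer listed in BAT cells and had 169 RPM in mouse dendrites and 131 in mouse somas. Most dendritic reads of Map2 were in intron 13 (297 reads in 2 contigs) and the rest in intron 6 (156 reads in 1 contig of 528 nt). BAT cells had 10382 of their reads in intron 11 in 1 contig of 961 nt, or 540 reads per 50 nt. Intron 6 was the sole Map2 intron shared between lists, by mouse dendrites and BAT cells, and the contigs there lay apart, 2422 and 16902 nt from the upstream exon.

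The contigs of Map2 introns 12 and 13 lay on either side of the same exon. The soma contig of intron 12 (chr1:66479947-66480086, 140 nt, 116 reads) stopped 1 nt short of the intron's 3′ end, and the dendrite contig of intron 13 (chr1:66480170-66480340, 171 nt) began 0 nt from the intron's 5′ end, at the GT printed above. The annotated Map2 transcript spans chr1:66221887-66488602 on the plus strand, with 14 introns of which the listed ones were 6, 11, 12 and 13. No contig of any mouse list fell in its longest intron, intron 3 of 70691 nt.

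Map1b, which codes for a large MAP of growing axons and dendrites, was listed in rat dendrites and BAT cells and in no other list. It had 1 intron in each, intron 6 in rat (144 reads, 143 RPM) and intron 3 in BAT cells (10017 reads, 561 RPM). The BAT contig (chr13:100211947-100213655, minus strand) was 1709 nt long and took 70.1% of its intron of 2439 nt, at 293 reads per 50 nt. Both Map1b contigs were over 400 nt, so the gene is in no list under that limit.

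Mapt reads were 4 in mouse dendrites, 418 in mouse somas, 47 in rat somas, 27 in BAT cells and 2 in cardiomyocytes. As RPM these were 1.30 (0.353 to 3.32), 225 (204 to 248), 22.4 (16.5 to 29.8), 1.51 (0.996 to 2.20) and 0.164 (0.0199 to 0.592). Mouse somas stood highest and rat somas next, while the interval of mouse dendrites overlapped with those of BAT cells and cardiomyocytes. The mouse somas listed introns 2, 6, 8 and 9, with 393 of 418 reads in intron 6, where 2 contigs spanned 24.3% of 7622 nt. Introns 6 and 9 each appeared in 3 mouse lists, intron 6 in somas, BAT cells and cardiomyocytes and intron 9 in dendrites, somas and BAT cells. In intron 6 the contigs of somas and BAT cells shared 334 bases, and in intron 9 the contigs of the lists did not overlap. The soma contig of intron 8, with 2 reads, touched an exon of a non-coding Mapt transcript in the annotation.

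Dclk1 reads were 144 in mouse dendrites, 966 in mouse somas and 2101 in BAT cells, or 46.7, 521 and 118 RPM. The intervals did not overlap, with somas highest and dendrites lowest, but with contigs of at most 400 nt Dclk1 was not listed in somas and had 82.0 RPM in dendrites and 2.34 in BAT cells. All 966 soma reads were in intron 1 of a short transcript (RefSeq NM_001111052), where a contig of 488 nt took 53.2% of the 918 nt of the intron. The dendrite list had a contig of 260 nt in the same stretch, with 12 reads, under another RefSeq transcript (NM_001195540). These contigs shared 239 bases and their 3′ ends lay 21 nt apart, at the aaat repeat. Dendrites and BAT cells both listed intron 7 with 130 and 18 reads, but none of these contigs overlapped. BAT reads were mostly in intron 2 of the long transcript (2083 reads, 877 nt).

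Dst, the gene of an actin and microtubule crosslinker of neurons and muscle, was listed in the 4 mouse lists and in neither rat list. It had 468 reads in 11 introns in mouse dendrites, 3012 in 4 introns in mouse somas, 10602 in 15 introns in BAT cells and 15972 in 7 introns in cardiomyocytes. In RPM, somas were highest with 1623 (1566 to 1682), followed by cardiomyocytes with 1309 (1289 to 1330), BAT cells with 594 (582 to 605) and dendrites with 152 (138 to 166). This order was the same with contigs of at most 400 nt, where an intron with any such contig kept all its reads. Intron 1 of cardiomyocytes thus kept its 11661 reads, although 1 of its contigs was 1706 nt long. Its rank by number of introns was 51 of 8607 genes in dendrites, 57 of 10220 in BAT cells, 118 of 6205 in cardiomyocytes and 259 of 5895 in somas. Intron 1 held most soma reads (2220 in 9 contigs) and most cardiomyocyte reads (11661 in 8 contigs), and intron 2 most BAT reads (6322 in 5 contigs). In dendrites the most read was intron 92 with 93 reads in a contig of 854 nt that took 70.9% of the intron.

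The Dst transcript spans chr1:34068670-34365495 on the plus strand and has 97 annotated introns, of which 23 were listed in at least 1 mouse list. Introns 1, 2 and 5 were listed in all 4. Of the 14 soma contigs, 13 lay in the 5′ part of the transcript up to its midpoint and the last lay 154 kb from the start, against 8 of 16 in dendrites, 15 of 28 in BAT cells and 13 of 17 in cardiomyocytes. Dendrite, BAT and cardiomyocyte contigs reached 284, 281 and 287 kb of the 297 kb of the transcript. The soma contig of intron 19 touched an antisense non-coding RNA (Gm16750), and since the reads carried no strand information the pair cannot be told apart. The BAT contig of intron 5 that ended at the shared 3′ end touched an annotated Dst exon.

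**Figure D3:**
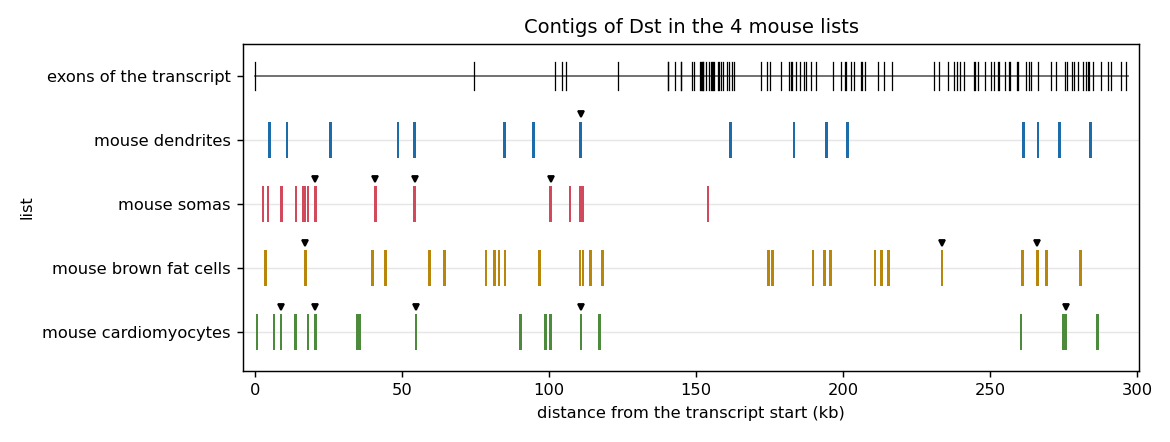
Contigs of Dst in the 4 mouse lists (rows, coloured boxes drawn at least 0.9 kb wide) against the distance from the transcript start in kb (horizontal axis), with exons as black lines in the top row and a triangle where a run of at least 10 adenines lies within 300 nt downstream. The soma contigs lie between 2.74 and 154 kb, and those of the other lists reach at least 281 kb.

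In Dst intron 5 contigs of all 4 mouse lists ended within 26 nt of each other. They ended at 34179629 in dendrites, 34179641 in somas, 34179642 in BAT cells and 34179616 in cardiomyocytes on chromosome 1, within or just ahead of the run of 21 adenines printed first above. Their 5′ ends lay between 68 and 806 nt apart. In intron 1, somas and cardiomyocytes shared 3′ ends 3 nt apart (34089468 and 34089471) and 12 nt apart (34123635 and 34123623), and in intron 2 they shared ends 8 nt apart (34169585 and 34169593), each at a run of adenines in the printed sequences. In intron 77 the dendrite and BAT contigs shared the 5′ end to 1 nt, and their 3′ ends were 394 nt apart.

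Macf1 was the sole member in all 6 lists. Its reads were 816 in mouse dendrites, 151 in mouse somas, 568 in rat dendrites, 5 in rat somas, 4168 in BAT cells and 3437 in cardiomyocytes. RPM values were highest in rat dendrites with 564 (518 to 612), followed by cardiomyocytes with 282 (272 to 291), mouse dendrites with 264 (247 to 283) and BAT cells with 233 (226 to 241). Mouse somas with 81.4 (68.9 to 95.4) and rat somas with 2.39 (0.775 to 5.57) were lowest. The intervals of cardiomyocytes and mouse dendrites overlapped. With contigs of at most 400 nt the values were 865 in rat dendrites, 368 in cardiomyocytes, 170 in mouse somas, 57.5 in mouse dendrites, 35.9 in BAT cells and 8.06 in rat somas, so that mouse somas stood above mouse dendrites and BAT cells. With 10 introns it ranked 2 of 4485 genes by introns in rat dendrites and 75 of 8607 in mouse dendrites. In rat dendrites introns 5, 39, 60, 62 and 75 had only 2 to 6 reads each. The ranks take no account of how many introns a gene has, which is 92 for the main mouse transcript of Macf1.

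A single intron carried most Macf1 reads of mouse dendrites, intron 27 with 614 of 816 reads in a contig of 436 nt (70.4 reads per 50 nt), and it was listed in no other mouse list. Rat dendrites were more even, with 230 reads in intron 89, 111 in intron 78 and 104 in intron 8. BAT cells had 2710 reads in intron 37 of another transcript (NM_001199136) and 988 in intron 63, whose contig touched an annotated Macf1 exon. Cardiomyocytes had 1083, 1036 and 685 reads in introns 21, 47 and 88. In BAT cells the contig of intron 58, with 164 reads, spanned 98.1% of the 729 nt of the intron.

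Macf1 spans chr4:123026959-123361603 on the minus strand. Its first intron, of 129604 nt or 40.8% of its intronic sequence, held no contig in any mouse list, whereas the first intron of Dst, of 74326 nt, held 28 contigs from all 4. Macf1 contigs lay between 133 and 323 kb from the transcript start. Intron 45 was listed in the 4 mouse lists with 4 reads in dendrites, 35 in somas, 1 in BAT cells and 8 in cardiomyocytes. Its dendrite and soma contigs ended 4 nt apart at the 3′ side although no run of adenines is there, as printed above. Intron 21 was listed in dendrites (61 reads), somas (10) and cardiomyocytes (1083), and the contigs overlapped in all 3 with the 3′ ends of dendrites and cardiomyocytes 17 nt apart. The intron 21 contig holds a purine repeat of gaa and gga. In intron 50 the soma and BAT contigs (102 and 18 reads) ended 2 nt apart at a run of 16 adenines, and both touched an antisense pseudogene (Gm12924), so the source cannot be told apart.

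**Figure D4:**
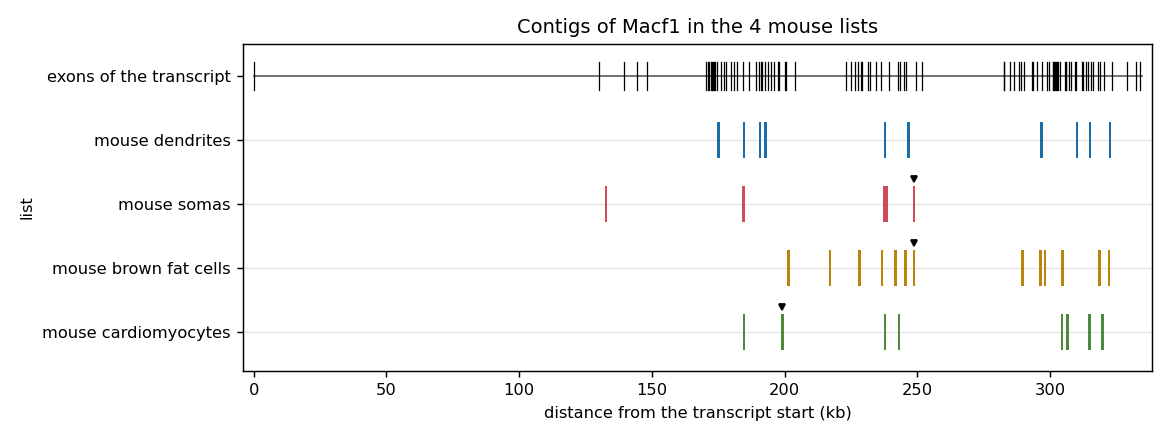
Contigs of Macf1 in the 4 mouse lists (rows, coloured boxes drawn at least 0.9 kb wide) against the distance from the transcript start in kb (horizontal axis), with exons in the top row and a triangle where a run of at least 10 adenines lies within 300 nt downstream. No contig lies in the first intron, and all lie between 133 and 323 kb.

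Ank2 reads were 220 in mouse dendrites, 162 in mouse somas and 19731 in BAT cells, or 71.3 (62.2 to 81.3), 87.3 (74.4 to 102) and 1105 (1090 to 1120) RPM. Dendrites and somas overlapped and BAT cells stood above both. With contigs of at most 400 nt the direction turned, since BAT cells kept only intron 20 with 26 of 19731 reads (3.38 RPM, against 125 in dendrites and 183 in somas). In dendrites intron 17 had 186 reads, and in somas all 162 reads were in intron 4. The limit kept all of these soma reads, although 1 contig of intron 4 was 555 nt long. The BAT reads came mainly from neighbouring introns, 4704 in intron 11, 13497 in intron 12 and 501 in intron 13. The contig of intron 12 (chr3:126658028-126658786, minus strand) spanned 99.9% of 760 nt at 889 reads per 50 nt, the highest density of any member intron. The contig of intron 11 reached the intron's 3′ end (0 nt left) and that of intron 13 started 1 nt from its 5′ end, so the listed sequence reached both exons flanking intron 12. The dendrite contig of intron 18 also stopped 2 nt before the next exon. In intron 4 the contigs of dendrites and somas ended 3 nt apart at a run of 8 adenines.

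Ank3 reads were 50 in mouse dendrites, 56 in mouse somas, 38 in rat dendrites, 1339 in rat somas and 2683 in cardiomyocytes. In RPM these were 16.2 (12 to 21.4), 30.2 (22.8 to 39.2), 37.7 (26.7 to 51.8), 639 (606 to 674) and 220 (212 to 228). Rat somas and cardiomyocytes stood above the other 3, of which the mouse somas overlapped with the rat dendrites. All Ank3 contigs of rat somas and cardiomyocytes were over 400 nt, so both lists lose the gene under that limit. Only 2 Ank3 introns were listed in mouse, each in more than 1 list. Intron 28 (NM_170690, 14649 nt) was listed in dendrites, somas and cardiomyocytes with 2, 56 and 1910 reads in contigs that did not overlap. Intron 37 (NM_170729, 2424 nt) had 48 reads in dendrites and 773 in cardiomyocytes, and the dendrite contig of 288 nt printed above lay whole within the cardiomyocyte contig. In rat, intron 37 of NM_031805 had 2 reads in dendrites and 915 in somas, with 5′ ends 2 nt apart.

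The compartments of the same cell type were then set side by side, as the share of list reads in dendrites over that in somas, where a ratio of at least 4 either way was called. In mouse none of 7 members was at least 4-fold higher in dendrites, beside 33.2% of the 4739 genes of both lists, and 3 of 7 were at least 4-fold lower, beside 24.9%. The 3 were Mapt with a ratio of 0.00575, Dclk1 with 0.0896 and Dst with 0.0934. The others were Macf1 with 3.25, Map2 with 2.35, Ank2 with 0.816 and Ank3 with 0.537, and the median of all genes was 1.20. In rat, Macf1 was called higher in dendrites with 236 (beside 35.7% of 2166 genes) and Ank3 lower with 0.0590 (beside 24.6%). The rat Macf1 ratio rests on 5 soma reads, and the mouse Mapt ratio on 4 dendrite reads. With contigs over 400 nt left out of both lists, the Macf1 ratio in mouse turned to 0.338, as 4 dendrite introns (27, 50, 84 and 89) with 715 of 816 reads were lost, while in rat it was 107. Under that limit the mouse ratio was 1.29 for Map2 and 0.0452 for Dst. The soma contigs of Dclk1 in mouse and of Ank3 in rat were all longer than 400 nt, so no ratio was left for these. Per sequenced read of the libraries the mouse ratio was 4.52 for Macf1, past the call, and 3.27 for Map2, and that of Ank2 turned from 0.816 to 1.14.

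The mouse cell types were compared in the same way, with pairs of lists that share the soma, BAT or cardiomyocyte list and so are not independent. Of the 6 genes of mouse somas and BAT cells, Mapt (ratio 149) and Dclk1 (4.43) were at least 4-fold higher in somas, beside 33.7% of genes. Map2 (0.107) and Ank2 (0.0790) were at least 4-fold lower there, beside 26.7%, while Dst (2.73) and Macf1 (0.349) were between. Of the 4 genes of mouse somas and cardiomyocytes, Mapt was higher in somas with 1374, beside 37.0%, and Ank3 lower with 0.137, beside 26.2%, while Dst had 1.24 and Macf1 0.289. The Mapt ratio there rests on 2 cardiomyocyte reads. Of the 3 genes of BAT cells and cardiomyocytes, Mapt was higher in BAT cells with 9.22, beside 34.3%, none was 4-fold lower, beside 28.3%, and Dst had 0.454 and Macf1 0.829. Several of these values depended on contigs over 400 nt. Without them no ratio was left for Map2 and Dclk1 in somas against BAT cells or for Ank3 in somas against cardiomyocytes, and in somas against BAT cells Ank2 turned to 54.0 and Macf1 to 4.74. Macf1 in BAT cells against cardiomyocytes was then 0.0976, past the call, while the Mapt ratios were 134, 1099 and 8.19. These are not ratios of reads in short contigs alone, because an intron with any contig within the limit kept all its reads. Soma Ank2 intron 4 kept its 162 reads, although 1 of its contigs was 555 nt long. BAT Ank2 intron 4, with a contig of 1489 nt, lost all 629.

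Member genes were shared between lists to differing degrees. All 7 genes of mouse dendrites were in mouse somas (beside 55.1% of dendrite genes) and the 7 soma genes were in dendrites (beside 80.4% of soma genes). In rat 2 of 3 genes were shared, beside 48.3% of dendrite genes and 63.8% of soma genes. Mouse somas and BAT cells shared 6 of 7 genes, beside 86.1% of soma genes and 49.7% of BAT genes. Mouse somas shared 4 of 7 genes with cardiomyocytes, beside 62.8%, which were all 4 of the cardiomyocyte genes, beside 59.6%. BAT cells shared 3 of 7 genes with cardiomyocytes, beside 53.2%, which were 3 of the 4 cardiomyocyte genes, beside 87.7%.

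Introns shared by a pair of lists were first counted by RefSeq transcript and intron number. Of the member introns, 9 were listed in both mouse dendrites and mouse somas, which is 28.1% of the dendrite introns (beside 25.9% over all introns) and 56.2% of the soma introns (beside 47.8%). By annotated position they were 10, since Dclk1 intron 1 was listed under different transcripts. In rat 2 introns were shared, Macf1 intron 78 and Ank3 intron 37, or 14.3% of the dendrite introns (beside 24.9%) and 2 of 5 soma introns (beside 34.8%). Mouse somas and BAT cells shared 8 introns (50.0% of the soma introns beside 55.5%, and 19.5% of the BAT introns beside 19.5%). Mouse somas and cardiomyocytes shared 7 (43.8% beside 32.9%, and 38.9% beside 26.6%), and BAT cells and cardiomyocytes also 7 (17.1% beside 26.1%, and 38.9% beside 60.0%). Over the 4 mouse lists there were 70 distinct member introns, counted by their annotated position, of which 22 (31.4%) were in at least 2 lists beside 39.5% of all introns. Dst and Macf1 gave 7 each of the 22, and 4 introns were in all 4 lists, Dst introns 1, 2 and 5 and Macf1 intron 45.

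A contig of another mouse list overlapped 11 of 39 dendrite contigs (28.2% beside 28.3% of all contigs), 16 of 32 soma contigs (50.0% beside 47.5%), 9 of 57 BAT contigs (15.8% beside 24.7%) and 11 of 28 cardiomyocyte contigs (39.3% beside 46.2%). Contigs of the same gene from different mouse lists overlapped in 31 pairs. The median gap between their 3′ ends was 26.0 nt and that between their 5′ ends 152 nt, beside 54.0 and 113 nt for all 21145 pairs. The 3′ ends lay within 20 nt of each other in 13 pairs (41.9%, Wilson interval 26.4 to 59.2) beside 37.8% of all pairs, and the 5′ ends in 5 pairs (16.1%, 7.09 to 32.6) beside 26.8%. Both intervals include the value of all pairs. Dst gave 17 of the 31 pairs, 6 of them from the shared end in intron 5, so the pairs are not independent.

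**Figure D5:**
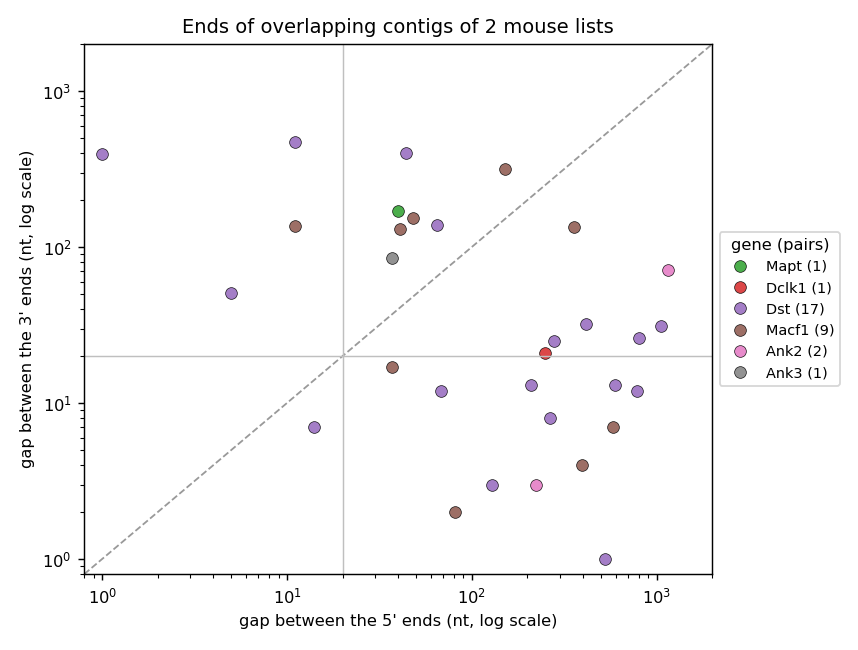
Gap between the 3′ ends (vertical axis, nt, log scale) against the gap between the 5′ ends (horizontal axis, nt, log scale) for the 31 pairs of overlapping member contigs from 2 mouse lists, coloured by gene; grey lines mark 20 nt and the dashed line marks equal gaps. In 20 pairs the 3′ ends are the closer ones, and 13 pairs lie at or under 20 nt for the 3′ ends.

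Runs of at least 10 adenines within 300 nt downstream were found for 2 of 39 member contigs in mouse dendrites (5.13%, beside 8.11% of all contigs) and 8 of 32 in mouse somas (25.0%, beside 18.6%). In BAT cells they were found for 4 of 57 (7.02%, beside 7.36%) and in cardiomyocytes for 6 of 28 (21.4%, beside 9.53%). The Wilson intervals of the member shares (1.42 to 16.9, 13.3 to 42.1, 2.76 to 16.7 and 10.2 to 39.5) include the share of all contigs except in cardiomyocytes, where 5 of the 6 contigs were from Dst. Dst gave 17 of the 28 cardiomyocyte contigs, 8 of them in its intron 1. The contigs are thus not independent, and the intervals take no account of this. With runs of at least 8 adenines the cardiomyocyte share was 25.0% (12.7 to 43.4), an interval that includes the 14.6% of all contigs. The interval stayed above the share of all contigs with a window of 150 nt (21.4%, beside 8.04%) and, in a setting chosen after seeing the data, with the last 50 nt of the contig added to the window (39.3%, 23.6 to 57.6, beside 17.4%). The other windows begin past the contig end and miss runs inside it. With the last 50 nt added, the shares were 10.3% in dendrites (beside 14.5%), 31.2% in somas (beside 26.1%) and 12.3% in BAT cells (beside 11.3%). Their intervals include the shares of all contigs. The letters AATAAA, the usual poly(A) signal, were searched on the gene's strand in the last 50 nt of each contig. They were in 6 of 39 dendrite contigs (beside 9.58%), 4 of 32 in somas (beside 10.6%), 3 of 57 in BAT cells (beside 7.12%) and 2 of 28 in cardiomyocytes (beside 10.8%). The letters CCCTGTCTC of the B1 repeat were in 1, 3, 0 and 3 member contigs (2.56, 9.38, 0 and 10.7%), beside 2.15%, 2.81%, 1.36% and 2.03% of all contigs. The Wilson intervals of somas (3.24 to 24.2) and cardiomyocytes (3.71 to 27.2) lay above the share of all contigs. In both lists the 3 contigs were in Dst introns 1 and 2 and Mapt intron 6, so they are few and not independent.

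Runs of at least 10 thymines within 300 nt upstream, looked at as the mirror of the adenine runs, were found for 4 of 39 dendrite contigs (beside 12.6%), 1 of 32 soma contigs (beside 11.4%), 7 of 57 BAT contigs (beside 8.95%) and 2 of 28 cardiomyocyte contigs (beside 7.61%). An annotated exon was touched by 0 of 39 dendrite contigs (beside 5.04%), 3 of 32 soma contigs (beside 9.60%), 3 of 57 BAT contigs (beside 7.52%) and 0 of 28 cardiomyocyte contigs (beside 11.4%).

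The contigs were sparse along the genes. Of all introns of the member transcripts, 8.58% were listed in mouse dendrites (32 of 373), 5.32% in somas, 10.6% in BAT cells and 6.45% in cardiomyocytes, beside 15.8%, 11.9%, 21.7% and 14.6% over all transcripts of each list. The longest intron held a contig in 1 of 15 member transcripts, that of Dst, beside 40.3% of 10553 transcripts with at least 5 introns. The 15 RefSeq entries stand for 12 annotated transcripts of 8 genes, so some introns were counted more than 1 time here and in the shares of introns listed. The empty introns included those of Ank3 (intron 1, 274131 nt), Macf1 (intron 1), Dclk1 (intron 3, 124569 nt) and Map2 (intron 3). Introns holding predicted genes or known poly(A) sites had been removed by the authors, and how many of these introns that touched is not known. Of the contigs, 12 of 39 in dendrites lay before the midpoint of the transcript's span (beside 43.8%), 18 of 32 in somas (beside 38.5%), 20 of 57 in BAT cells (beside 40.8%) and 13 of 28 in cardiomyocytes (beside 37.0%). By intron number, 16 of 32 listed introns in dendrites, 10 of 16 in somas, 19 of 41 in BAT cells and 6 of 18 in cardiomyocytes were on the 5′ side of the transcript, with the middle intron counted to that side. With the middle intron counted to the 3′ side the shares were 43.8% in dendrites, 62.5% in somas, 43.9% in BAT cells and 33.3% in cardiomyocytes. Each Wilson interval of the first count included the share among all introns of the same transcripts, which was between 50.4% and 50.8%. Over the listed introns of all transcripts the share was 58.0% in dendrites, 53.9% in somas, 53.3% in BAT cells and 51.3% in cardiomyocytes.

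Related cytoskeleton genes were counted by family, with 39 genes in all. Of these 25 were listed in mouse dendrites, 16 in mouse somas, 20 in rat dendrites, 14 in rat somas, 24 in BAT cells and 17 in cardiomyocytes. In the same order the lists held 62.8, 43, 32.7, 24.8, 74.6 and 45.3% of all 13695 gene symbols, so the family counts below are to be read against list size. Other microtubule-associated proteins had 5 of 9 genes listed in mouse dendrites and 2 of 9 in somas, with 980 and 98 reads for Map4, a MAP of many tissues. The doublecortin relative Dclk2 had 755 reads in mouse dendrites and 4519 in mouse somas, or 245 and 2436 RPM. The erythroid and muscle ankyrin Ank1 had 59 reads in mouse dendrites, 1157 in mouse somas and 2531 in cardiomyocytes, or 19.1, 624 and 207 RPM. Of the spectrins, partners of ankyrins, 6 of 7 were listed in mouse dendrites and in BAT cells and 5 of 7 in cardiomyocytes. Of the other plakins, desmoplakin (Dsp), a desmosome protein of heart and epithelia, had 14465 reads in cardiomyocytes and at most 55 in each mouse list besides. Among proteins of microtubule ends 7 of 10 were listed in mouse dendrites, 5 in mouse somas, 8 in BAT cells and 5 in cardiomyocytes. Clasp2, which stabilises growing microtubule ends, was in all 6 lists, with 820 RPM in mouse dendrites, 589 in mouse somas, 975 in rat dendrites, 735 in rat somas, 200 in BAT cells and 2651 in cardiomyocytes. Of the stathmins 1 of 4, Stmn2, was listed in mouse dendrites.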

How the data were processed

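RNA of dendrites and single cells was amplified in 3 aRNA rounds and sequenced in 26 libraries. The authors aligned the reads (RUM and Bowtie; mm9 and rn4 per the labels), kept intronic reads that mapped to a unique place, left out any intron overlapping a GENSCAN or TWINSCAN gene model or a PolyA_DB2 site, and joined neighbouring reads into contigs. The deposited values are raw read counts per intron, repeated on each contig, from pooled libraries. The authors limited whole-cell contigs to at most 400 nt in their own counts. Here all contigs were kept and that limit was an alternative, under which an intron kept all its reads if any of its contigs passed. Starts were shifted to count from 1. Reads were divided by the reads of the list. Mouse transcripts were matched to GENCODE by symbol and intron position (12777 of 13156, 97.1%; all 15 member transcripts). Shares of reads carry 95% exact (Clopper-Pearson) intervals and shares of contigs Wilson intervals; PCR reads are not independent molecules. Python 3.11.15, pandas 2.3.3, scipy 1.17.1, pysam 0.24.0 and matplotlib 3.10.9 were used, and the counting steps were tested on simulated data. The named introns are the 3 most read per gene and list, others being named after their values were seen. Members and gene lists were chosen with earlier results of these data known. The labels name 6 BAT and 9 cardiomyocyte libraries, more than the study counts. Rat sequence and intron lengths were not analysed here.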

Additional observations from a re-analysis of the deposited data

Results flagged for a closer look

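The summed member reads fell on opposite sides of 1 in mouse and rat when dendrites were set against somas: the ratio of shares was 0.265 in mouse and 1.12 in rat. Per sequenced read both were below 1, with 0.369 in mouse and 0.823 in rat, and with contigs of at most 400 nt they lay further apart, at 0.154 and 10.5. Each ratio compares 1 pooled list with another, and the difference between the species was not tested. In mouse the soma reads were mainly Dst (3012 of 4881), which was in neither rat list, and in rat the dendrite reads were mainly Macf1 (568 of 750). The rat soma reads were mainly Ank3 (1339 of 1391), which the length limit removed from that list.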

How the results depend on the processing

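No paired analysis was possible because each condition is 1 pooled list, so no library could be left out either. Of 76 alternative values for 28 results, 42 stayed within the counting interval or within 1.5 times the count, 33 moved and 1 turned its direction. The 42 include values that had no room to move. Joining the introns of several transcripts changed no value, and leaving out Dst could not change the rat lists, where it is not listed. Ratios of single genes are not among the 28 results, and some of them turned, as given above. The causes were not tested beyond what each setting removes. Under the limit of 400 nt an intron with any contig within it kept all its reads, those of its longer contigs included. In the order mouse dendrites, mouse somas, rat dendrites, rat somas, BAT cells and cardiomyocytes, the member share of reads was 0.0594, 0.386, 0.0881, 0.00838, 0.119 and 0.311% with contigs of at most 400 nt. It was 0.0421, 0.588, 0.0536, 0.0411, 0.212 and 0.291% with the reads repeated on each contig, and 0.0499, 0.144, 0.0516, 0.0227, 0.244 and 0.0856% without the most read member intron. Without Dst, a setting chosen after seeing the data, the mouse shares were 0.0547, 0.101, 0.260 (BAT cells) and 0.0502% (cardiomyocytes). The summed ratio of dendrites to somas was 0.369 per sequenced read and 0.154 with contigs of at most 400 nt in mouse; in rat it turned from 1.12 to 0.823 per sequenced read and was 10.5 with the length limit. Member introns with at least 32 reads numbered 15 in mouse dendrites, 6 in rat dendrites, 3 in rat somas and 18 in BAT cells. With contigs of at most 400 nt, 3 introns were left in rat somas and 25 in BAT cells, 1 was shared by the rat lists, and 6.13% of the introns of the member transcripts were listed in mouse dendrites. The value of Mapt in cardiomyocytes rests on 2 reads, with an interval of 0.0199 to 0.592 RPM.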
